A study of Mus musculus with 15 samples.

Results

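The genes described here are 35 mouse genes of glycolysis and of the response to low oxygen. They were taken as a list of symbols and joined to the gene identifiers of the count files, where all 35 were present among 27179 identifiers. A filter on low counts kept 33 of them; Slc16a3 and Epas1 were too low to be tested. RNA sequencing had been done on 15 libraries of 4T1, a mouse mammary carcinoma cell line, in 5 populations with 3 biological replicates each. The parental population carries the genotype label WT. The populations E1, E2, A and M are each 1 clone, raised from a single parental cell after transfection with a plasmid for the nuclear near-infrared protein iRFP670. The clones were kept under G418, the parental cells were not, and the drug was taken out of the culture that gave the RNA. RNA was drawn after 72 h in culture, near 80% confluency. The labels do not give an oxygen level for the cultures. All 4 clones went through transfection, drug selection and growth from 1 cell, so in a comparison with the parental population these steps and the clone cannot be told apart. Each clone is a single isolate, and the p-values measure the spread between libraries of that isolate only.

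Glycolysis breaks glucose down to pyruvate in a chain of enzymes, and lactate dehydrogenase turns pyruvate into lactate, which leaves the cell through monocarboxylate transporters. Hypoxia-inducible factor (HIF) is a transcription factor with an oxygen-labile alpha subunit. When oxygen is present, prolyl hydroxylases of the EGLN family mark that subunit for breakdown, and when oxygen falls HIF accumulates and turns on many genes of glycolysis together with genes of blood vessel growth, pH control, mitophagy and collagen folding. Tumour cells often run glycolysis at a high rate even when oxygen is plentiful, and the 4T1 line is widely used as a model of metastatic mammary carcinoma.

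In the clones E1 and E2, Pfkl, Aldoa, Tpi1, Pgk1 and Ldha were expressed above the parental level. Of 15 tested genes of glucose uptake and the glycolysis steps, 5 rose in E1, with Eno1 the additional one, and 4 in E2, and none fell. Over all genes, 7.77% were called higher and 7.35% lower in E1, and 9.14% higher and 8.8% lower in E2. The calls of Eno1 in E1 and of Aldoa in E2 were lost on leaving out single libraries, as were others described below. In clone A, Hk2, Pfkfb3, Pgk1 and Pgam1 were below the parental level, and the hypoxia-inducible genes Egln3, Bnip3, P4ha1 and Car9 were above it. Bnip3, P4ha1 and Car9 were also above it in E2, and were not called between A and E2 (edgeR adjusted p = 0.631 for Bnip3, 0.0782 for P4ha1 and 0.928 for Car9). In clone M, Tpi1 and Car9 rose and Pfkp and Mxi1 fell. Car9, which encodes a cell-surface carbonic anhydrase, and Tpi1 rose in all 4 clones. The call of Tpi1 in A was lost on leaving out any 1 of the parental or A libraries. The 4 comparisons share the parental libraries, and genes called in all 4 clones were not counted over all genes. The transcript of the HIF subunit gene Hif1a was abundant in every population and was called in no comparison.

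The libraries held 20143111 to 36831801 counts, and 61.4% to 72.1% of these fell on 6 genes, which leaves 6164768 to 14206491 counts for all others. Those of the 6 with a symbol in the gene table used here were Lars2, mt-Rnr2 and mt-Rnr1. The most abundant identifier, 100861531, has no symbol in that table. It took 36.8% to 49.3% of a library, and in all 5 populations its share was highest in replicate 1. Levels are CPM, that is counts scaled to the library total with TMM factors. Calls rest on edgeR's quasi-likelihood test with Benjamini-Hochberg adjustment over the 12712 genes tested, and need an adjusted p under 0.05. Log2 fold changes come from that fit, and their standard errors (SE) come from the spread of log2 CPM among the libraries. All 8 genes of a list of mammary epithelial and carcinoma markers had counts in every population, with a summed level of 371 to 423 CPM in the parental libraries and 594 to 881 CPM in the clones, which did not overlap. Mesenchymal markers summed to 483 to 640 CPM in A, 250 to 339 CPM in the parental libraries and 217 to 611 CPM in the other clones, with Cdh2 at 0 counts throughout and Zeb1 at 0 in E2. The part of both lists in the results was not tested. Leukocyte markers summed to at most 0.631 CPM and endothelial markers to at most 0.426 CPM. Fibroblast markers summed to 21.1 to 33.8 CPM for A and to 3.34 to 12.1 CPM in the other populations, with 2 or 3 of 6 genes detected and Dcn, Lum and Thy1 at 0 counts in all libraries; their part in the results for A was not tested. In bulk RNA, fewer cells that express a gene and less RNA per cell cannot be told apart.

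The promoters of several of these genes are shown because HIF is known to bind the core letters ACGTG and GCGTG. The genes shown did not all change in the same clones or in the same direction, and Slc2a1 was called in no pair. The printed windows span the 250 bases before a transcription start, from RefSeq on GRCm38.p6, and were found for 34 of the 35 genes. The search took in 50 further bases after the start, and each core was searched on both strands, so CACGT and CACGC in the printed strand are the same cores read from the other strand. CACGTG holds ACGTG on both strands and is counted as 2 cores. Counting a gene once if any of its windows held a core, ACGTG or GCGTG occurred in 31 of the 33 tested genes (93.9%), against 68.3% of the 9704 tested genes that have a window. By window, the share was 78.8% of the 52 windows of the 34 genes and 43.8% of all 32851 windows. Those 32851 windows belong to 27025 genes, tested or not, and were not matched for base composition. ACGTG alone occurred in 72.7% of the 33 tested genes and in 29.7% of the 9704. GCGTG alone occurred in 69.7% and 56.6%, and CACGTG in 18.2% and 11.9%. A match to these letters is a description of the sequence and does not show that HIF binds there. The 4 windows printed in full belong to Hk2, Pgk1, Ldha and Egln3. Hk2 was low in A and Egln3 was high in A. Pgk1 and Ldha were high in E1 and E2, and were lower in A than in either. Sequences run 5′ to 3′ along the strand of the gene, and capitals mark the cores.
Hk2 promoter, chr6:82774455-82774704, minus strand: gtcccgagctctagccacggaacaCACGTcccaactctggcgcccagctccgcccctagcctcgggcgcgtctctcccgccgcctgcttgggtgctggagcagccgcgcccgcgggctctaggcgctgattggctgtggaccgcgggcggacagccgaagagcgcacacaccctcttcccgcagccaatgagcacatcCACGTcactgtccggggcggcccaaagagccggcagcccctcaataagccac
Pgk1 promoter, chrX:106186850-106187099, plus strand: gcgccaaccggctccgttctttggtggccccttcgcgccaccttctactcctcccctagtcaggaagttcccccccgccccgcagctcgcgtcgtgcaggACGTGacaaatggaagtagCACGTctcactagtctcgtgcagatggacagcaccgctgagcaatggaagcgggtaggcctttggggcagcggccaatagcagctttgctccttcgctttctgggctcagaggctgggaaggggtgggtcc
Ldha promoter, chr7:46845554-46845803, plus strand: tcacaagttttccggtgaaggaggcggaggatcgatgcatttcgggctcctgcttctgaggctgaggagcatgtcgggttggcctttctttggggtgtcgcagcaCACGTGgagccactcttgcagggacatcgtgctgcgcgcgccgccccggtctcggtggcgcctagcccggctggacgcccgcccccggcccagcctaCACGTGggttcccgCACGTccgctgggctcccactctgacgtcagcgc
Egln3 promoter, chr12:54203875-54204124, minus strand: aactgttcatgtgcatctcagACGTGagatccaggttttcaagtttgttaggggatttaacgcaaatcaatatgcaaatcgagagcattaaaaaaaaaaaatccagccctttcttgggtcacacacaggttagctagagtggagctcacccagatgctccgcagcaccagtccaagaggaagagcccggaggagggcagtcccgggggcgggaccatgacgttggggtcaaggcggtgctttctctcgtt
The cores begin 226 and 52 bases before the start in Hk2, 150 and 131 bases before it in Pgk1 and 229 bases before it in Egln3. The Ldha window, 1 of 2 for that gene, holds 2 copies of CACGTG, and its cores nearest the start begin 48, 47 and 34 bases before it. For Slc2a1, Pfkl, Car9 and Bnip3 a stretch of 30 bases around the cores is shown, because the longer window overlaps annotated exons.
Slc2a1 promoter, chr4:119108684-119108713, plus strand: CACGCctctcagagtcccgccccggACGTG
Pfkl promoter, chr10:78009890-78009919, minus strand: catttgtagactgGCGTGcgctccgccttt
Car9 promoter, chr4:43506995-43507024, plus strand: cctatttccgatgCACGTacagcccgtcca
Bnip3 promoter, chr7:138909598-138909627, minus strand: ggcgCACGCgccgCACGTGccaCACGCtcc
The Bnip3 stretch holds 4 cores, of which 2 overlap in a CACGTG, and the Car9 stretch holds 1.

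**Figure D1:**
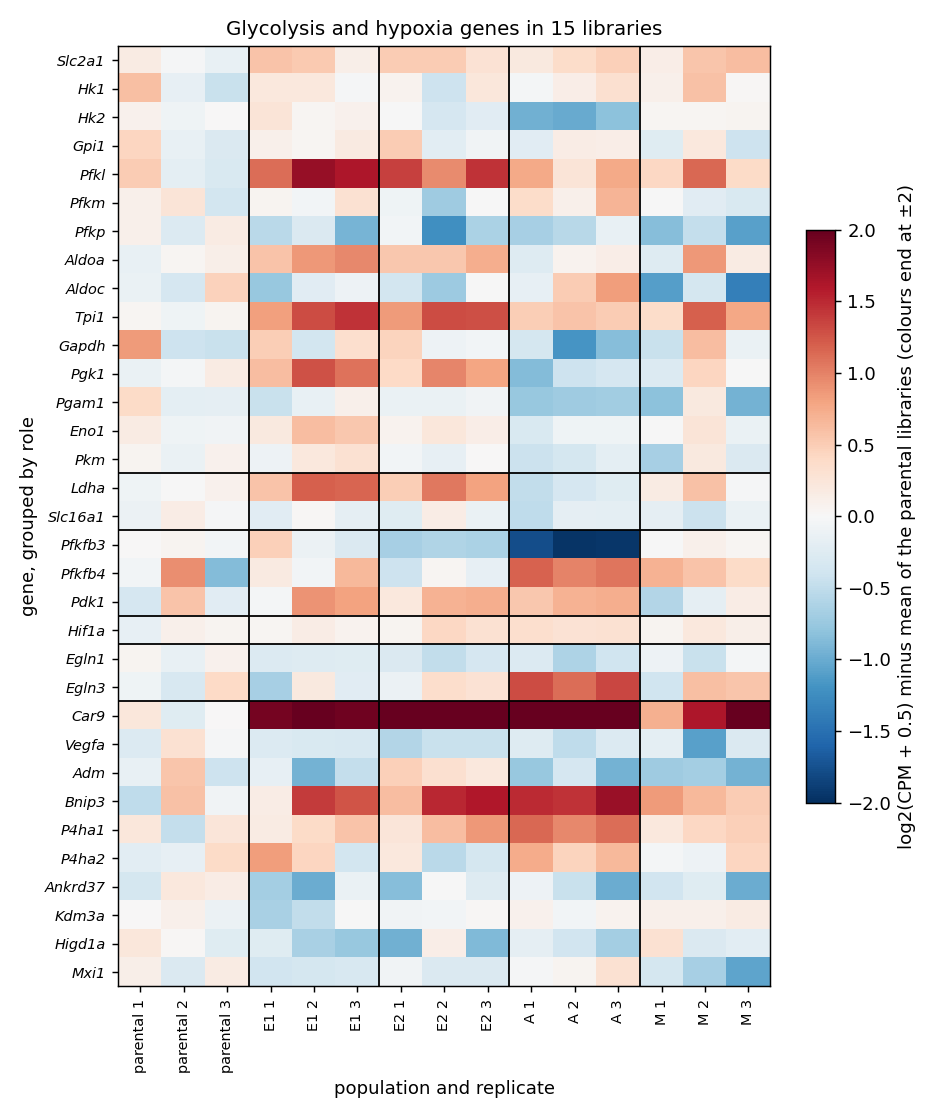
Each row is 1 of the 33 tested genes in order of its role and each column is 1 of the 15 libraries; colour is log2(CPM + 0.5) minus the mean of the parental libraries, with colours ending at 2 in either direction. Pfkl, Tpi1, Pgk1 and Ldha are red in E1 and E2, Hk2 and Pfkfb3 are blue in A, and Car9 is red in all 4 clones.

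Over the 5 populations, 14 of the 33 tested genes (42.4%) differed, against 40.9% of all genes tested, so the list as a whole was called about as often as the rest of the transcriptome. Of these 14 genes, the highest mean was in E1 for 8 and in A for 6. The lowest mean was in A for 6, in the parental population for 5, in M for 2 and in E1 for 1. Over the 10 pairs of populations there were 63 calls, of which 40 (63.5%) were in pairs that include A, as were 64.5% of the calls over all genes. At least 1 pair was called for 22 genes, of which 8 were not called in the test of any difference. No pair was called for Slc2a1, Hk1, Gpi1, Pfkm, Slc16a1, Hif1a, Adm, P4ha2, Ankrd37, Kdm3a and Higd1a. Genes called in at least 1 pair, and populations of highest and lowest mean, were not counted over all genes. Those counts therefore have no background here.

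**Figure D2:**
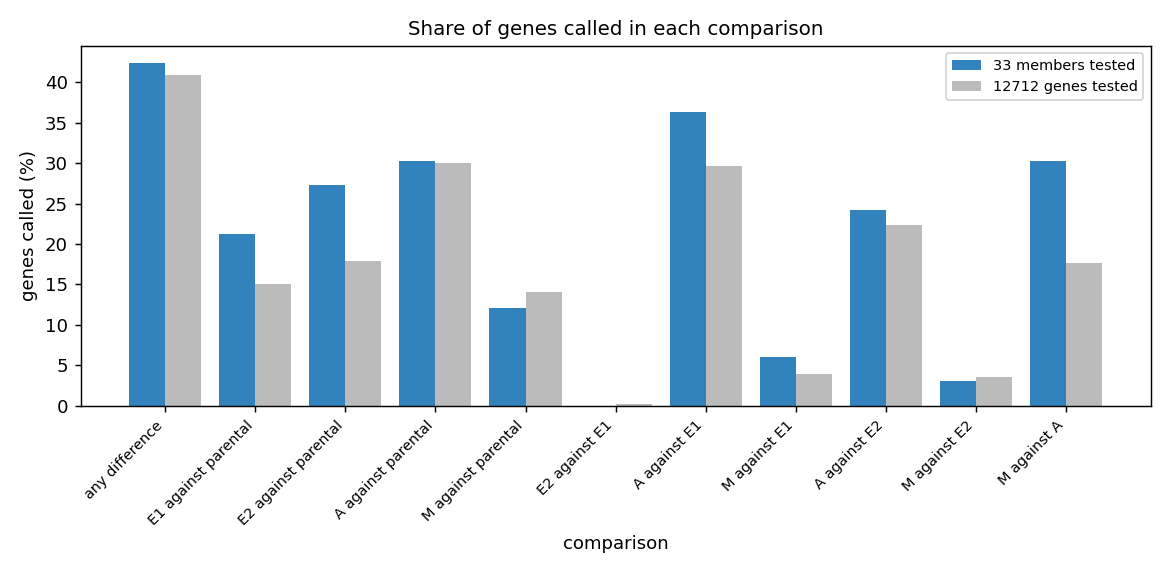
Bars give the percentage of the 33 tested list genes (blue) and of all 12712 tested genes (grey) called in each comparison. The blue bars lie close to the grey ones for any difference (42.4% and 40.9%) and for A against the parental population (30.3% and 30%), and lie farther above them for M against A (30.3% and 17.7%). They lie below the grey ones for M against the parental population (12.1% and 14.1%), M against E2 (3.03% and 3.5%) and E2 against E1 (0% and 0.236%).

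Glucose enters the cell through transporters such as GLUT1, the product of Slc2a1, and is trapped by hexokinases. Slc2a1 had means of 16.3 CPM in the parental population and 20.8 to 22.4 CPM in the clones, and was called in no pair (edgeR adjusted p for any difference = 0.171). Hk2 encodes the inducible hexokinase of muscle and of many tumours. Its level was 72.2, 63.7 and 68.4 CPM in the parental libraries, 81.0, 70.2 and 72.4 CPM for E1, 67.3, 54.0 and 58.2 CPM for E2, 34.8, 33.6 and 38.3 CPM for A, and 70.2, 69.8 and 70.9 CPM for M. The 3 libraries of A lay below every library of the other populations, which overlapped one another in part. Hk2 in A fell by 0.93 ± 0.08 (SE) on the log2 scale against the parental population (edgeR adjusted p = 6.82e-06) and was lower than in E1 (log2 fold change -1.07 ± 0.08, edgeR adjusted p = 1.12e-06). A was also below E2 (-0.75 ± 0.11, edgeR adjusted p = 0.000192), and M was above A (0.98 ± 0.06, edgeR adjusted p = 1.18e-05). These Hk2 calls were kept in every alternative processing. Hk1, the more widely expressed hexokinase, had means of 22.5 to 27.3 CPM and was called in no pair. Per kilobase of transcript, averaged over the 5 population means, Hk2 stood at 11.2 CPM and Hk1 at 5.80 CPM.

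Phosphofructokinase carries out the committed step of glycolysis, and its subunits are encoded by Pfkl, Pfkm and Pfkp. Pfkl, the liver-type subunit, stood at 34.8, 21.1 and 19.6 CPM in the parental libraries, 53.3, 82.2 and 75.7 CPM for E1, and 63.6, 47.1 and 67.4 CPM for E2. In A it stood at 41.4, 29.1 and 41.3 CPM and in M at 32.7, 54.4 and 31.7 CPM. E1 and E2 lay above all parental libraries and overlapped each other, while A and M overlapped the parental range, whose highest value was replicate 1. Against the parental population, the log2 fold change of Pfkl was 1.48 ± 0.32 in E1 (edgeR adjusted p = 0.000477) and 1.24 ± 0.31 in E2 (edgeR adjusted p = 0.00182). It was 0.57 ± 0.31 in A (edgeR adjusted p = 0.0895) and 0.66 ± 0.36 in M (edgeR adjusted p = 0.0815), neither of which was called. A was below E1 (-0.92 ± 0.26, edgeR adjusted p = 0.00786). The other subunit genes behaved differently. Pfkm, the muscle type, had means of 4.88 to 7.84 CPM and was called in no pair. Pfkp, the platelet type, was highest in the parental population (12.2 CPM) and lowest in M (6.79 CPM), a fall of 0.83 on the log2 scale (edgeR adjusted p = 0.0399) that was lost on leaving out parental replicate 1 or 3 or M replicate 1 or 3 (edgeR adjusted p up to 0.17). Per kilobase of transcript, Pfkl stood at 12.4 CPM, Pfkp at 2.11 CPM and Pfkm at 2.09 CPM, so Pfkl was the most abundant of the 3 subunit transcripts by this scale.

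Aldolase splits the phosphorylated sugar, and triose phosphate isomerase, the product of Tpi1, interconverts the products. The main aldolase gene, Aldoa, had means of 79.6 CPM in the parental population, 139 CPM for E1, 121 CPM for E2, 78.9 CPM for A and 101 CPM for M. It rose in E1 (0.81 ± 0.14, edgeR adjusted p = 0.00701) and in E2 (0.61 ± 0.10, edgeR adjusted p = 0.0345), and was lower in A than in E1 (-0.82 ± 0.17, edgeR adjusted p = 0.00265). The call in E2 was lost on leaving out any 1 of the 3 parental or the 3 E2 libraries (edgeR adjusted p 0.0583 to 0.137). Aldoc, the brain-type aldolase, was low, with means of 0.293 CPM for M to 1.48 CPM for A. Tpi1 stood at 47.1, 43.2 and 47.5 CPM in the parental libraries, 81.9, 114 and 126 CPM for E1, 83.7, 114 and 113 CPM for E2, 64.7, 68.7 and 65.7 CPM for A, and 59.3, 106 and 78.7 CPM for M. Every clone library was above every parental library, E1 and E2 lay above A, and M spread from below A into the range of E1 and E2. The log2 fold change against the parental population was 1.22 ± 0.19 for E1 (edgeR adjusted p = 4.23e-05), 1.17 ± 0.15 for E2 (edgeR adjusted p = 5.39e-05), 0.82 ± 0.25 for M (edgeR adjusted p = 0.00236) and 0.53 ± 0.05 for A (edgeR adjusted p = 0.0259). The call in A was lost on leaving out any 1 of the 3 parental or the 3 A libraries (edgeR adjusted p 0.052 to 0.0817). A was lower than E1 (-0.70 ± 0.19, edgeR adjusted p = 0.00396) and lower than E2 (-0.64 ± 0.15, edgeR adjusted p = 0.00998; 0.0576 without E2 replicate 3).

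Phosphoglycerate kinase, encoded by Pgk1, makes the first ATP of the pathway. Pgk1 stood at 126, 135 and 154 CPM in the parental libraries, 212, 333 and 294 CPM for E1, 183, 271 and 238 CPM for E2, 75.3, 103 and 109 CPM for A, and 114, 185 and 137 CPM for M. All libraries of E1 and all but 1 of E2 lay above every library of M, all of A lay below every other library, and M spanned the parental range. Pgk1 rose by a log2 fold change of 1.02 ± 0.21 in E1 (edgeR adjusted p = 0.00075) and 0.74 ± 0.19 in E2 (edgeR adjusted p = 0.00894), and fell by 0.52 ± 0.19 in A (edgeR adjusted p = 0.0402). The call in E2 was lost on leaving out parental replicate 1 or E2 replicate 2 (edgeR adjusted p 0.0502 and 0.0535). The call in A was lost on leaving out parental replicate 2 or 3, E1 replicate 3, or A replicate 1 or 2 (edgeR adjusted p 0.0501 to 0.198). Between clones, A was below E1 by 1.54 ± 0.26 on the log2 scale (log2 fold change -1.54, edgeR adjusted p = 1.66e-06) and below E2 by a log2 fold change of -1.26 ± 0.24 (edgeR adjusted p = 4.4e-05). M was lower than E1 (-0.94 ± 0.28, edgeR adjusted p = 0.00455). M was higher than A (0.60 ± 0.26, edgeR adjusted p = 0.0316), a call lost on leaving out A replicate 1 or 2 or M replicate 2 or 3, and without M replicate 2 the log2 fold change was 0.39 (edgeR adjusted p = 0.179).

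The remaining steps are those of Gapdh, Gpi1, Pgam1, Eno1 and Pkm. Eno1, the main enolase gene, had means of 209 CPM in the parental population, 287 CPM for E1, 230 CPM for E2, 186 CPM for A and 215 CPM for M. It rose in E1 (0.46 ± 0.15, edgeR adjusted p = 0.031), which was lost on leaving out parental replicate 2 or 3 or E1 replicate 2 or 3 (edgeR adjusted p 0.106 to 0.16), and was lower in A than in E1 (-0.62 ± 0.15, edgeR adjusted p = 0.0017). Pkm, which encodes pyruvate kinase, was lower in A (322 CPM) than in E1 (449 CPM), a log2 fold change of -0.48 ± 0.14 (edgeR adjusted p = 0.0304). That call was lost on leaving out E1 replicate 2 or 3 or A replicate 1 or 2 (edgeR adjusted p 0.0842 to 0.136). Pgam1, a phosphoglycerate mutase gene, fell from 22.8 CPM in the parental population to 13.4 CPM for A (-0.76 ± 0.19, edgeR adjusted p = 0.0153), and the call was lost on leaving out parental replicate 1 or A replicate 1 (edgeR adjusted p 0.0866 and 0.0512). Gapdh, often used as a reference gene, was low in these counts at 4.71 to 9.61 CPM, and A was lower than E1 (-1.02 ± 0.38, edgeR adjusted p = 0.04) with overlapping libraries. The Gapdh call was lost on leaving out any of 6 libraries, E1 replicate 1 or 3, E2 replicate 2 or 3, or A replicate 2 or 3 (edgeR adjusted p 0.0514 to 0.153). Gpi1, the phosphoglucose isomerase gene, had means of 36.2 to 42.6 CPM and was called in no pair. Of the 50-base windows of the transcript, 82.5% for Gapdh, 72.2% for Eno1, 68% for Pgk1, 41.5% for Pgam1 and 34.4% for Pkm also occur in transcripts of other genes, so reads can have been lost or moved and these levels are uncertain. The share was 16.6% for Ldha, 13.5% for Aldoa, 7.51% for Tpi1, 0.0543% for Pfkl and 0 for Hk2.

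Lactate dehydrogenase A, the product of Ldha, turns pyruvate to lactate. Ldha stood at 214, 226 and 241 CPM in the parental libraries, 338, 522 and 510 CPM for E1, 320, 470 and 398 CPM for E2, 160, 180 and 191 CPM for A, and 255, 341 and 224 CPM for M. E1 and E2 lay above the parental libraries, A lay below them, and M overlapped both the parental range and the lower edge of E1 and E2. The log2 fold change against the parental population was 1.01 ± 0.21 in E1 (edgeR adjusted p = 0.000246) and 0.80 ± 0.17 in E2 (edgeR adjusted p = 0.00196). In A it was -0.36 ± 0.09 and was not called (edgeR adjusted p = 0.127), although the libraries did not overlap. A was lower than E1 (-1.37 ± 0.22, edgeR adjusted p = 1.41e-06) and E2 (-1.16 ± 0.18, edgeR adjusted p = 2.54e-05). M was lower than E1 (-0.74 ± 0.27, edgeR adjusted p = 0.0135), which was lost on leaving out E1 replicate 2 or 3 or M replicate 1 or 3 (edgeR adjusted p 0.0601 to 0.125). M was higher than A (0.63 ± 0.19, edgeR adjusted p = 0.0127), lost on leaving out A replicate 1 or M replicate 2 (edgeR adjusted p 0.0693 and 0.0958). Slc16a1, a lactate transporter gene, had means of 123 to 150 CPM and was called in no pair. Slc16a3, the transporter gene known as a hypoxia-inducible one, had 0 to 11 counts in a library and was not tested. Per kilobase of transcript, Ldha (168.6 CPM) and Pkm (156.8 CPM) were the highest of the list, followed by Eno1 (111.2 CPM), Pgk1 (97.5 CPM), Aldoa (67.1 CPM) and Tpi1 (50.4 CPM). Reads of Pkm, Eno1, Pgk1 and Gapdh can have been lost or moved, as described above, so this order is uncertain.

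**Figure D3:**
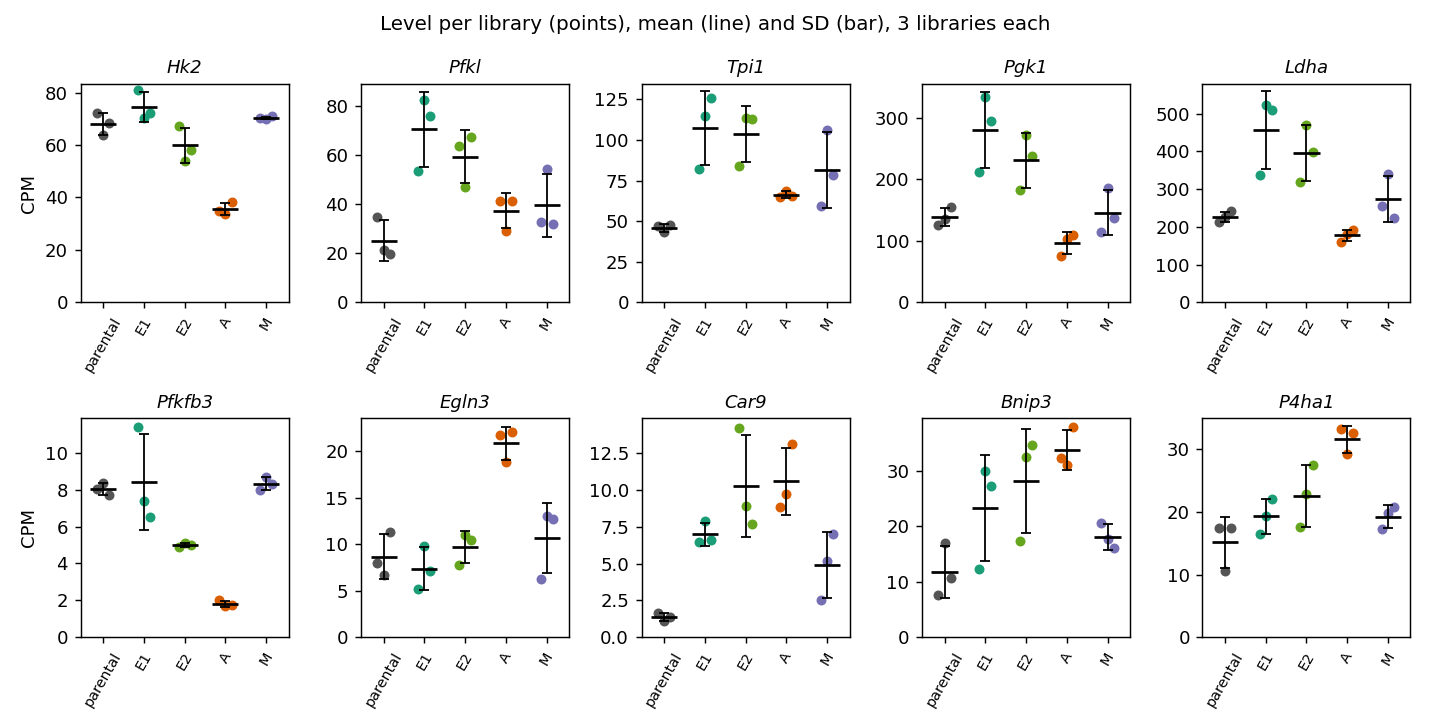
Each panel gives the level of 1 gene in CPM on a linear axis from 0, with points for the libraries, a line for the mean and a bar for the SD of 3 libraries per population. Pgk1 and Ldha are high in E1 and E2 and lowest in A, Pfkfb3 falls to 1.70 to 1.99 CPM for A, and Egln3 and P4ha1 are highest in A.

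Replicate 1 was the lowest of the 3 libraries for Pgk1 and Pdk1 in 5 of 5 populations and for Aldoa, Tpi1, Ldha, Slc16a1 and Hif1a in 4, and it is also the replicate with the highest share of the most abundant identifier. For Pfkl this held in 1 population. Replicate 2 was the lowest library for Hk2 in 5 of 5 populations and for Egln1 in 4. Over the 33 tested genes, replicate 1 was the lowest library for 10 genes of the parental population, 19 of E1, 16 of E2, 16 of A and 13 of M. The part of this pattern in the results was not tested. Without parental replicate 1 and E2 replicate 1, the E1 and E2 rises of Pfkl, Tpi1, Pgk1 and Ldha were still called, and those of Aldoa were not (edgeR adjusted p = 0.0848 in E1 and 0.243 in E2), with log2 fold changes of 0.74 in E1 and 0.55 in E2.

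Flux into and out of glycolysis is set in part by Pfkfb3 and Pfkfb4, which make the main activator of phosphofructokinase, and by Pdk1, a kinase that shuts pyruvate out of the mitochondrial oxidation pathway. Pfkfb3 stood at 8.03, 8.34 and 7.68 CPM in the parental libraries, 11.4, 7.39 and 6.50 CPM for E1, 4.89, 5.10 and 5.01 CPM for E2, 1.99, 1.70 and 1.72 CPM for A, and 7.98, 8.68 and 8.29 CPM for M. The A libraries were below all others and E2 was below the parental, E1 and M libraries, which overlapped one another. Against the parental population, Pfkfb3 in A fell by 2.11 ± 0.08 on the log2 scale (edgeR adjusted p = 5.05e-07), while the E2 log2 fold change of -0.67 ± 0.04 was not called (edgeR adjusted p = 0.0528). A was also below E1 (-2.18 ± 0.25, edgeR adjusted p = 2.91e-07) and E2 (-1.44 ± 0.07, edgeR adjusted p = 0.000147), and M was above A (2.16 ± 0.08, edgeR adjusted p = 1.37e-06). The 4 calls of Pfkfb3 were kept in every alternative processing. Pfkfb4 had its highest mean in A (3.26 CPM) and its lowest in E2 (1.08 CPM), a log2 fold change of 1.52 ± 0.19 (edgeR adjusted p = 0.0214), lost on leaving out E2 replicate 1 or 3 or A replicate 1 or 3 (edgeR adjusted p 0.0503 to 0.0775). A had the lowest mean of Pfkfb3 and the highest mean of Pfkfb4. Pdk1 had means of 9.05 CPM for M and 16.4 CPM for A, where M was lower (-0.85 ± 0.23, edgeR adjusted p = 0.0239), a call lost on leaving out A replicate 2 or 3 or M replicate 1 or 2 (edgeR adjusted p 0.0602 to 0.111).

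HIF itself is made of an oxygen-sensitive alpha subunit, encoded by Hif1a or Epas1, and a partner. Hif1a stood at 166, 199 and 193 CPM in the parental libraries, 192, 206 and 194 CPM for E1, 193, 248 and 229 CPM for E2, 235, 228 and 229 CPM for A, and 193, 215 and 202 CPM for M. The A libraries lay above the parental, E1 and M ones, and the other ranges overlapped. The log2 fold change of A against the parental population was 0.31 ± 0.08 and was not called (edgeR adjusted p = 0.0831), and the test of any difference gave an edgeR adjusted p of 0.243. HIF is controlled mainly through the stability of its protein, which these data do not measure. Epas1, which encodes the second alpha subunit, had 2 counts in E1 replicate 2 and 2 counts in A replicate 1, and 0 in every other library. A floor of 3 counts over a population corresponds to 0.0318 to 0.0378 CPM here. In a population with 0 counts of Epas1, a level below that floor could have been missed.

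Egln1 and Egln3 encode prolyl hydroxylases that switch HIF off, and Egln3 is itself a known HIF target. Egln3 stood at 7.94, 6.70 and 11.3 CPM in the parental libraries, 5.14, 9.76 and 7.13 CPM for E1, 7.75, 11 and 10.4 CPM for E2, 21.7, 18.8 and 22.1 CPM for A, and 6.26, 13.0 and 12.7 CPM for M. All 3 A libraries were above every other library, and the other populations overlapped. Egln3 rose in A by a log2 fold change of 1.26 ± 0.23 (edgeR adjusted p = 0.000571). It was also higher in A than in E1 (1.51 ± 0.27, edgeR adjusted p = 8.74e-05) and E2 (1.09 ± 0.17, edgeR adjusted p = 0.00309). M was lower than A (-0.96 ± 0.35, edgeR adjusted p = 0.0104; 0.0696 without M replicate 1). Egln1 fell in A, from 53.9 to 39.9 CPM (-0.43 ± 0.12, edgeR adjusted p = 0.0258), and the call was lost on leaving out parental replicate 3 or A replicate 2 or 3 (edgeR adjusted p 0.0612 to 0.131).

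Among the hypoxia targets of the 35 genes, Car9 had the largest rise against the parental population. Car9, carbonic anhydrase IX, sits on the cell surface and helps to keep internal pH. It stood at 1.67, 1.07 and 1.35 CPM in the parental libraries, 6.45, 7.90 and 6.59 CPM for E1, 14.2, 8.94 and 7.66 CPM for E2, 8.87, 9.75 and 13.1 CPM for A, and 2.51, 5.15 and 6.99 CPM for M. All clone libraries were above all parental libraries, and M was the lowest clone with an overlap with E1. The log2 fold change against the parental population was 2.30 ± 0.20 for E1 (edgeR adjusted p = 2.53e-05), 2.85 ± 0.32 for E2 (edgeR adjusted p = 1.04e-06), 2.90 ± 0.24 for A (edgeR adjusted p = 1.93e-07) and 1.80 ± 0.46 for M (edgeR adjusted p = 0.000328). The 4 comparisons share the 3 parental libraries. Car9 in M was below A (-1.10 ± 0.46, edgeR adjusted p = 0.0109), a call lost on leaving out A replicate 3 or M replicate 1 (edgeR adjusted p 0.0751 and 0.068). M was below E2 (-1.05 ± 0.51, edgeR adjusted p = 0.0489), a call lost in 15 of the alternative fits, with edgeR adjusted p up to 0.271 without E2 replicate 1.

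Bnip3, which encodes a mitochondrial protein that promotes mitophagy, stood at 7.66, 16.9 and 10.6 CPM in the parental libraries, 12.4, 30.1 and 27.4 CPM for E1, 17.3, 32.5 and 34.7 CPM for E2, 32.4, 31.1 and 37.9 CPM for A, and 20.6, 17.7 and 16.0 CPM for M. The A libraries lay above the parental and M libraries, while E1 overlapped the parental range. Bnip3 rose in A (1.52 ± 0.34, edgeR adjusted p = 0.00213) and in E2 (1.26 ± 0.46, edgeR adjusted p = 0.014), with an E1 value of 0.98 ± 0.52 that was not called (edgeR adjusted p = 0.0549). The E2 call was lost on leaving out parental replicate 1 or 3 or E2 replicate 2 or 3 (edgeR adjusted p 0.0612 to 0.0752), and 62.4% of the 50-base windows of Bnip3 occur in other transcripts. P4ha1, a subunit of the enzyme that hydroxylates collagen prolines, stood at 17.4, 10.5 and 17.5 CPM in the parental libraries, 16.5, 19.4 and 22.1 CPM for E1, 17.5, 22.8 and 27.4 CPM for E2, 33.1, 29.2 and 32.5 CPM for A, and 17.2, 19.8 and 20.8 CPM for M. A was above every library of the other populations, which overlapped. P4ha1 rose in A (1.06 ± 0.25, edgeR adjusted p = 0.000172) and was higher there than in E1 (0.71 ± 0.13, edgeR adjusted p = 0.00692), and M was below A (-0.71 ± 0.10, edgeR adjusted p = 0.0114; 0.0516 without M replicate 1). P4ha1 in E2 rose by a log2 fold change of 0.58 ± 0.31 (edgeR adjusted p = 0.0406). That call was lost on leaving out parental replicate 2 (log2 fold change 0.38, edgeR adjusted p = 0.22), E2 replicate 2 or 3, or A replicate 2 or 3 (edgeR adjusted p 0.0502 to 0.256).

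Of the other hypoxia targets, Mxi1, a MYC antagonist gene, fell in M against the parental population (-0.71 ± 0.26, edgeR adjusted p = 0.0211), lost on leaving out parental replicate 1 or 3 or M replicate 3 (edgeR adjusted p 0.0633 to 0.135). M was also below A for Mxi1 (-0.81 ± 0.24, edgeR adjusted p = 0.00658; 0.0575 without M replicate 3). Vegfa, the main angiogenic growth factor gene, had means of 39.5 CPM for E2 to 56.5 CPM in the parental population. Its fall in E2 (-0.52 ± 0.18, edgeR adjusted p = 0.0489) was lost in 14 of the alternative fits, at edgeR adjusted p up to 0.241 without parental replicate 2. Kdm3a, a histone demethylase gene, had means of 29.4 to 41.2 CPM, and Higd1a, a gene of a small mitochondrial protein, had means of 6.01 to 9.01 CPM. Neither was called in any pair, nor was P4ha2 at 0.669 to 1.54 CPM. Adm and Ankrd37 were near the detection limit, at 0.0621 to 0.713 CPM and 0.177 to 0.509 CPM.

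By comparison, E1 against the parental population had 7 of 33 genes called (21.2%), all higher, where 15.1% of all genes were called and 7.77% were called higher. The median log2 fold change was 0.08 over the list and -0.01 over all genes. E2 had 9 called, 8 higher and 1 lower, where 17.9% of all genes were called (9.14% higher and 8.8% lower), with medians of -0.04 and 0.01. Without E2 replicate 2 or 3 the E2 count was 5. A had 10 called, 5 higher and 5 lower, where 30% of all genes were called (15.1% higher and 14.9% lower), so the share of 30.3% is that of the background, and the medians were -0.01 and 0.03. M had 4 called, 2 higher and 2 lower, against a background of 14.1% (7.87% higher and 6.28% lower), and 2 without parental replicate 3 or without M replicate 3. The medians for M were 0.05 over the list and -0.01 over all genes. These 4 comparisons share the parental libraries, so their counts are not independent of one another.

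**Figure D4:**
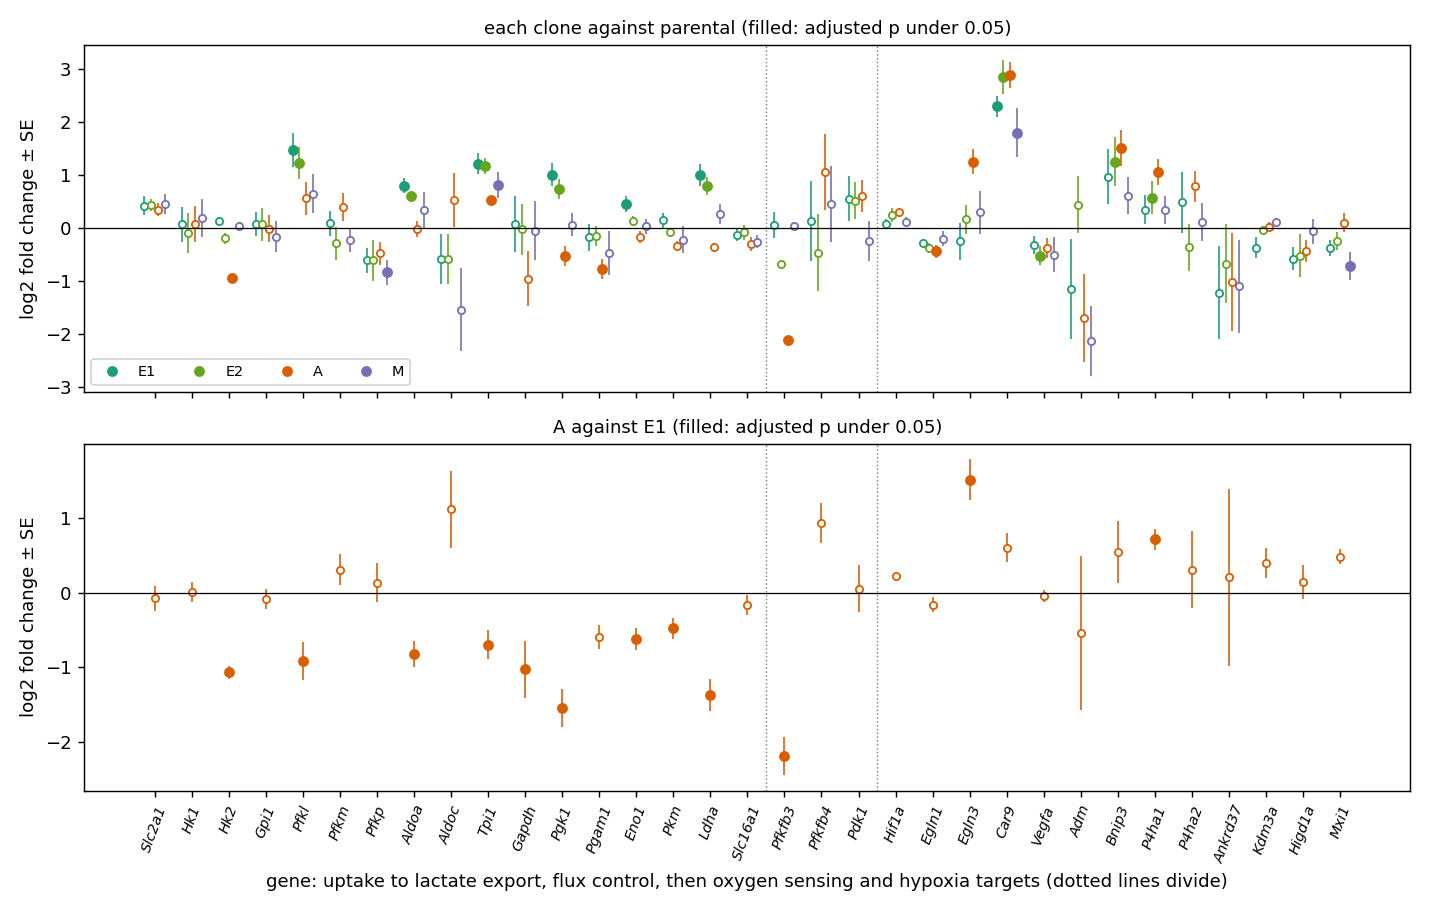
Points give the log2 fold change of the 33 tested genes and bars its SE, filled where called; the upper panel is each clone against the parental population and the lower panel is A against E1. In the lower panel the filled points of the glycolysis steps and Ldha lie between -0.48 and -1.54, and Egln3 and P4ha1 lie above 0.

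Between clones, the contrast of A with E1 held the most calls of the list, 12 of 33 (36.4%) against a background of 29.6%. Of these, 10 were lower in A and 2, Egln3 and P4ha1, were higher. The genes of the glycolysis steps accounted for 8 of the lower calls out of 15 tested and for none of the higher ones, where 14.6% of all genes were called lower and 15% higher, and their median log2 fold change was -0.59 against 0.02 for all genes. The 8 genes were Hk2, Pfkl, Aldoa, Tpi1, Gapdh, Pgk1, Eno1 and Pkm. As described above, the calls of Gapdh and Pkm were lost on leaving out single libraries. The levels of Gapdh, Eno1, Pgk1 and Pkm are uncertain because much of their sequence is shared. The background was not matched for expression level. A against E2 had 8 calls, 6 lower and 2 higher, where 22.4% of all genes were called (11.4% higher and 11% lower), and the lower ones were Hk2, Aldoa, Tpi1, Pgk1, Ldha and Pfkfb3. Aldoa in that contrast (-0.62 ± 0.14, edgeR adjusted p = 0.0254) was lost on leaving out E2 replicate 1 or 3 or A replicate 1 or 2 (edgeR adjusted p 0.0512 to 0.116).

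M against A had 10 calls, 4 higher and 6 lower, where 17.7% of all genes were called (9.2% higher and 8.55% lower), and 6 without M replicate 1. Hk2, Pfkfb3, Pgk1 and Ldha were higher in M, and Aldoc, Pdk1, Egln3, Car9, P4ha1 and Mxi1 were lower. Aldoc (-2.07 ± 0.80, edgeR adjusted p = 0.0413) was lost on leaving out any of 7 libraries, parental, E1 or E2 replicate 3, A replicate 2 or 3, or M replicate 1 or 3 (edgeR adjusted p 0.0507 to 0.16). Its log2 fold change was -1.67 without M replicate 3 and -3.04 without M replicate 2, whose 26 counts stood against 4 and 2 in the other M libraries. M against E1 had 2 calls, Pgk1 and Ldha, both lower in M, where 3.89% of all genes were called and 1.46% were called lower. That count was 8 without M replicate 2, 4 without E1 replicate 1, and 1 without E1 replicate 2, M replicate 1 or M replicate 3. M against E2 had 1 call, Car9, where 3.5% of all genes were called and 1.57% were called lower; leaving out M replicate 2 gave 5, leaving out E2 replicate 1 gave 2, and leaving out 1 of parental replicate 3, E1 replicate 2 or 3, E2 replicate 2, A replicate 2 or 3 or M replicate 1 gave 0.

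E2 against E1 had 0 of 33 genes called by edgeR's quasi-likelihood test, where 0.236% of all genes were called. DESeq2 and limma-voom also called 0, and 4 genes had an unadjusted p under 0.05 in edgeR. No difference between these clones in the list was detectable with 3 libraries each, which does not show that the levels are the same.

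Other genes of the pathways were counted from lists that hold none of the 35. Of 13 tested genes of other glycolytic enzymes, transporters and regulators, 5 differed over the populations, where 40.9% of all genes did. Tigar, a phosphatase gene that acts against phosphofructokinase activation, was higher in M than in A (1.43 ± 0.34, edgeR adjusted p = 0.00133), and Pfkfb2 rose in E1, E2 and M, from 26.9 CPM to 57.8, 56.4 and 58.4 CPM (1.12 ± 0.27 for M, edgeR adjusted p = 0.000119). Adpgk, an ADP-dependent glucokinase gene, fell in E1 (-0.72 ± 0.08, edgeR adjusted p = 0.00376). Of 13 tested genes of pyruvate oxidation, 7 differed. Pdk3, a kinase gene of the same family as Pdk1, rose in E1, M and E2, where its log2 fold change was 0.93 ± 0.15 (edgeR adjusted p = 0.000235). Pdhb, a subunit gene of pyruvate dehydrogenase, fell in A and in E2 (-0.91 ± 0.24 for E2, edgeR adjusted p = 0.000398). Pdp1, which encodes a phosphatase that reactivates the enzyme, rose in A (0.89 ± 0.23, edgeR adjusted p = 0.00213).

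The pentose phosphate pathway, which branches from glycolysis to make NADPH and ribose, had 5 of 10 tested genes (50%) called in the test of any difference, where 40.9% of all genes were called. Rpia, the ribose phosphate isomerase gene, rose in E1 and in M (1.28 ± 0.13 for M, edgeR adjusted p = 1.13e-05). Pgd was lower in A than in E1 (-0.96 ± 0.18, edgeR adjusted p = 0.00314) and Prps2 rose in E1, E2 and A (0.90 ± 0.18 for A, edgeR adjusted p = 0.000124). Glycogen genes had 3 of 8 called (37.5%). Pgm1 rose in all 4 clones (0.94 ± 0.16 for M, edgeR adjusted p = 0.00351), Gbe1 was higher in M than in A (0.87 ± 0.17, edgeR adjusted p = 0.00359) and Ugp2 was higher in A than in E1 (0.69 ± 0.13, edgeR adjusted p = 0.00247). Of the 7 tested genes on a list drawn up for other HIF machinery, 4 were called (57.1%). A place on that list does not show a role in HIF control, as for Hspbap1. Hspbap1 fell in E2 and in A (-1.45 ± 0.47 for A, edgeR adjusted p = 0.00289) and Cited2, a gene of a protein that competes with HIF for its coactivator, was lower in A than in E1 (-0.92 ± 0.16, edgeR adjusted p = 5.12e-05). Vhl, which encodes the ligase subunit that recognises hydroxylated HIF, was higher in M than in A (0.92 ± 0.26, edgeR adjusted p = 0.00181).

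Of these lists, other hypoxia-inducible genes were called most often, 21 of 30 tested (70%) against the background of 40.9%. The lists were chosen with earlier results of these data known, so this share cannot show that such genes differ more than others. Their directions were mixed: against the parental population, 2 rose and 10 fell in A, 2 rose and 8 fell in M, 5 rose and 8 fell in E1, and 7 rose and 7 fell in E2. Over all genes, 15.1% were called higher and 14.9% lower in A, 7.87% and 6.28% in M, 7.77% and 7.35% in E1, and 9.14% and 8.8% in E2. Vldlr, a lipoprotein receptor gene, fell in all 4 clones, from 44.1 CPM to 7.03 CPM for E1, 6.28 CPM for E2, 12.2 CPM for A and 3.16 CPM for M (-3.80 ± 0.36 for M, edgeR adjusted p = 9.04e-06). Hmox1, the heme oxygenase gene that also responds to oxidative stress, fell in M and in A (-3.34 ± 0.65 for A, edgeR adjusted p = 8.84e-08). Pgf, a placental growth factor gene, rose in all 4 clones (3.19 ± 0.86 for A, edgeR adjusted p = 3.79e-05). In A, then, Egln3, Bnip3, P4ha1 and Car9 rose while 10 genes of this second list fell in the same libraries.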

How the data were processed

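Per the labels, total RNA went through a directional library preparation, and reads were sequenced on a NovaSeq. The authors deposited raw counts per gene identifier for each of the 15 libraries. Per the submitters' processing notes, HISAT2, featureCounts and DESeq2 were used with the builds GRCm38 and mm10. Versions and the strand setting of the counting are not given in the sources used here, so where genes lie on opposite strands of 1 stretch their reads may be mixed. The 4 tables of the whole series were not used here.

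Identifiers were joined to symbols with a RefSeq gene table (25275 of 27179 named), and all 35 genes were found. Counts were analysed in R 4.3.3 with edgeR 4.0.16: filterByExpr (minimum count 10, minimum total count 15) kept 12712 genes, TMM gave factors of 0.847 to 1.11, and a robust quasi-likelihood fit on all 15 libraries with population as its only term tested the 10 pairs and any difference. Fold changes used a prior count of 2, and the biological coefficient of variation was 0.255. P-values were adjusted over all genes tested in each comparison with Benjamini-Hochberg. The fit was tested on simulated data. DESeq2 1.42.0 and limma 3.58.1 served as alternatives, with RLE factors, other filters, removal of the 6 most abundant genes, a replicate block, fits on 2 populations, and leaving out each library.

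Levels per kilobase use the longest protein-coding transcript of GENCODE M21. Windows of 50 bases shared between transcripts were counted in the same set. Intervals and floors cover counting error only, since PCR copies were not marked by molecular identifiers. Libraries of the same population were compared for duplicates, and each pair differed by a chi-square of at least 19.23 per degree of freedom.

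The genes and the lists of other pathway genes were chosen with earlier results of these data known. Library values are given in full for genes called in the test of any difference with a log2 fold change of at least 1 in a called pair, and for the HIF subunits. Of each other pathway list, up to 3 genes are named, those called with the largest log2 fold change and at least 5 CPM in the highest population.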

Additional observations from a re-analysis of the deposited data

How the results depend on the processing

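Of the 63 calls between populations, 35 were kept in every alternative, 28 were lost in at least 1, and 0 changed direction. RLE factors or removal of the 6 most abundant genes moved the median of all genes by at most 0.0304 on the log2 scale. Leaving out 1 library gave 12 to 19 called genes for any difference (14 with all libraries), 6 to 9 for E1 against the parental population (7), 5 to 10 for E2 (9), 8 to 12 for A (10) and 2 to 6 for M (4). Between clones it gave 10 to 13 for A against E1 (12), 6 to 11 for A against E2 (8), 6 to 11 for M against A (10), 1 to 8 for M against E1 (2), 0 to 5 for M against E2 (1), and 0 in each case for E2 against E1.

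The other counts that moved by over 1.5 times all involve M. M against the parental population gave 7 calls with no filter. M against E1 gave 4 with no filter, with DESeq2, with the replicate block, and without both parental replicate 1 and E2 replicate 1. M against E2 gave 6 with no filter, 2 with the stricter filter, 3 with DESeq2, 4 with the replicate block, and 0 without the 6 most abundant genes, in a fit on the 2 populations, and without both parental replicate 1 and E2 replicate 1. The cause was not tested.

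The replicate numbers were checked for pairing. Deviations of same-numbered libraries from their population means correlated at -0.0579 to 0.213. A library correlated best with its own number for all 3 numbers in 5 of 10 pairs of populations, so same-numbered libraries resembled one another in part. The labels give no pairing, and the main fit did not use the numbers. Over all genes, 5738 were called for any difference with the number as a block and 5200 without it. With the replicate number as a block, 15 genes were called for any difference, 8 for E1, 11 for E2, 14 for A and 4 for M against the parental population, 0 for E2 against E1, 13 for A against E1, 10 for A against E2 and 12 for M against A.

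Depth limits the low genes most: Adm, Ankrd37, Aldoc, Epas1 and Slc16a3 rest on few counts, and only Aldoc was called, in 1 pair.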
